A study of Homo sapiens with 8 samples.

Results

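The TRIM genes encode proteins with a shared N-terminal layout of a RING domain, B-box and coiled coil, and many of them act as ubiquitin ligases in the defence of cells against viruses. The 9 genes described here were chosen by name as antiviral members of that family (TRIM5, TRIM6, TRIM22, TRIM34, TRIM14, TRIM21, TRIM26, TRIM38 and TRIM56), with earlier results of these libraries known. All 9 were found, each as 1 row, among the 35805 rows of the deposited table, and all 9 lay among the 14665 rows with an average log2 value over the libraries of 0 or more. Because of that choice, their differences between IRF2-guide and control libraries are given as descriptions with standard errors and without p-values.

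Many TRIM genes are induced by interferons, through response elements in their promoters that bind STAT complexes and interferon regulatory factors. IRF2 binds the same kind of element as the activator IRF1. It was first described as an antagonist of IRF1, and it also maintains the basal expression of some genes of antigen presentation. TRIM proteins work at several steps. TRIM5 and TRIM34 recognise retroviral capsids, TRIM21 binds antibody on viruses that enter the cytosol, and TRIM14, TRIM38 and TRIM56 act on the adaptors and sensors of the RNA and DNA sensing pathways.

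RNA was sequenced from K562 cells, a chronic myeloid leukaemia line that expresses erythroid genes. The cells carried dCas9-KRAB, in which a Cas9 without nuclease activity is joined to the repressor domain KRAB. There were 4 groups of 2 libraries: cells with the guide sg1-IRF2, cells with the guide sg2-IRF2, cells with the guide sgAAVS1, which targets a safe-harbour site and served as negative control, and untransduced cells. Every group carries dCas9-KRAB, and the untransduced cells carry no guide. RNA of the guide-bearing cells was taken 7 days after transduction. The labels do not say whether the cells came from 1 clone or whether the replicates were separate cultures.

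Values are on the deposited log2 scale, where each library has its own scaling factor. Whole reads were recovered from them, 5248359 to 6738348 per library. IRF2 reads numbered 4 and 8 in the sg1-IRF2 libraries, 22 and 21 in the sg2-IRF2 libraries, 196 and 291 in the sgAAVS1 libraries and 271 and 268 in the untransduced libraries. Its log2 difference of both guides from sgAAVS1 was -4.51 ± 0.18 (SE, limma moderated test, adjusted p = 2.5e-16). The erythroid markers HBG1, HBG2, HBE1, GATA1, TAL1 and KLF1 lay between log2 6.33 and 8.05 in every library. Of the markers of other cell types, MS4A1 had 0 reads in all libraries and CD3E and CD14 had at most 4, while CD3D (189 to 232 reads), LYZ (289 to 382), EPCAM (402 to 498), KRT8 (1335 to 1538), KRT18 (860 to 1001), COL1A1 (148 to 277), COL1A2 (42 to 121) and DCN (2 to 13) were detected. Of the 3 fibroblast markers, COL1A1 and COL1A2 were lower in all 4 IRF2-guide libraries than in all 4 controls, as were TRIM34 and TRIM22, and DCN overlapped. The level of the 3 summed on the linear scale was 39.3 to 44.8 with sg1-IRF2, 48.8 to 50.5 with sg2-IRF2, 54.5 to 63.6 with sgAAVS1 and 59.9 to 65.0 in untransduced cells. The part of other cells in the results below was not tested. Libraries were also alike across groups in ways the IRF2 guides do not set. Chi-square per gene was 1.12 and 1.23 between the sg1-IRF2 and sgAAVS1 libraries of the same number, against 1.64 between the sgAAVS1 replicates, and it was 1.12 to 1.31 between sg2-IRF2 and untransduced libraries, where counting noise gives about 1. For the members, differences of the mean of the guides are therefore given against both controls, with the value of every library. Differences of single guides are given for some members only.

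The promoters of the members are shown first, since the study removes a factor that binds a short repeated sequence. RefSeq (GRCh38.p14) gave windows from 250 bases before to 50 bases after a start site for 8 of the 9 members, 9 windows in all. TRIM34 has 2 windows, and TRIM22 was not matched. The core of the interferon response element was searched as GAAA, any 2 bases and GAAA again, on both strands, with overlapping matches counted. It occurred in the windows of 5 members (TRIM34, TRIM5, TRIM14, TRIM21 and TRIM26), against 3.57% of all 35116 windows in the table. A run of 3 copies of GAAA at that spacing occurred in TRIM21 and TRIM26, against 0.154% of all windows. The STAT element TTCNNNGAA occurred in none of the 9 windows and in 7.66% of all windows. The sequences run 5′ to 3′ on the strand of the gene, and the capitals mark the core, which reads as TTTC repeats where it lies on the other strand. Position -1 is the last base before the start site. For TRIM34, TRIM5, TRIM14 and TRIM26 the 250 bases before the start site are given, and for TRIM21, whose match lies after the start site, 30 bases.
TRIM34 (chr11:5624751-5625000, plus strand, core at -90 to -81): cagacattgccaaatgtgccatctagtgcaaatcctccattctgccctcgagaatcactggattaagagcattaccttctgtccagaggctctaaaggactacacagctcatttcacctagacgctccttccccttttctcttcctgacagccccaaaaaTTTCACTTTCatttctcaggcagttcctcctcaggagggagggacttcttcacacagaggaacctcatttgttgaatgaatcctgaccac
TRIM5 (chr11:5685075-5685324, minus strand, core at -27 to -18): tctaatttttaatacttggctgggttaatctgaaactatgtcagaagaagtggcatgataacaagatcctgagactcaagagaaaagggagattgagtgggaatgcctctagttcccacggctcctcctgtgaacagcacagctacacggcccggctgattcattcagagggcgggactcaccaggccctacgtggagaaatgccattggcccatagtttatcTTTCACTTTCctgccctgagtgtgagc
TRIM14 (chr9:98119223-98119472, minus strand, core at -26 to -17): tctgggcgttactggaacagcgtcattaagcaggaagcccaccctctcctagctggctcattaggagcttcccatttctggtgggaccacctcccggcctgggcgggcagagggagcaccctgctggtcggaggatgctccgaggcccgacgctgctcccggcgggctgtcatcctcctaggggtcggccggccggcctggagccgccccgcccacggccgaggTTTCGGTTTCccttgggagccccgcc
TRIM26 (chr6:30213407-30213656, minus strand, cores at -194 to -185 and -188 to -179): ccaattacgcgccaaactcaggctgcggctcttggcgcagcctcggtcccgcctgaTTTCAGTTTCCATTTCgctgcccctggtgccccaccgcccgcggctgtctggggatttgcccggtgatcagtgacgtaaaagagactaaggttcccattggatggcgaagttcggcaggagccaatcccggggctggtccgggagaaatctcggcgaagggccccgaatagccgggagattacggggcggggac
TRIM21 (chr11:4393663-4393692, minus strand, cores at 18 to 27 and 24 to 33): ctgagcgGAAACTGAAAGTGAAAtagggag
A match is a description of the letters and not a binding site. The TRIM34 and TRIM5 cores have the same 10 letters. The windows of TRIM6, TRIM38 and TRIM56 and the second window of TRIM34 did not hold these letters.

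Per exonic base, the members covered a wide range of levels in the control cells. Scaled reads per exonic kb averaged over the 4 control libraries were highest for TRIM56 (22.8 ± 1.3, SD), followed by TRIM38 (18.6 ± 0.48), TRIM14 (17.7 ± 2.9), TRIM5 (16.0 ± 0.43), TRIM21 (13.7 ± 1.3), TRIM6 (6.55 ± 0.54), TRIM34 (3.64 ± 0.32), TRIM26 (2.26 ± 0.090) and TRIM22 (0.708 ± 0.11). TRIM38 overlapped TRIM14, and TRIM14 overlapped TRIM5, over those libraries. The other neighbours in that order did not overlap. In the 4 IRF2-guide libraries TRIM34 stood at 1.10 ± 0.29 scaled reads per exonic kb and TRIM26 at 1.82 ± 0.20, so those 2 genes changed places in the order, and the other members kept theirs.

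TRIM34, TRIM6, TRIM5 and TRIM22 lie side by side on chromosome 11, in a cluster of related genes next to the beta-globin locus. TRIM34 and TRIM22 were lower with both IRF2 guides than in either control. The group means of TRIM5 and TRIM6 spanned 0.15 and 0.17 log2 units. Expressed as fold differences from sgAAVS1, TRIM34 was 3.52-fold lower and TRIM22 1.87-fold lower over both guides. A value from bulk RNA averages over all cells, so fewer cells with a transcript and less of it per cell cannot be told apart.

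TRIM34, a partner of TRIM5 in the restriction of some lentiviruses, is on the plus strand (chr11:5619764-5644398, hg38). Its log2 values were 1.29 and 1.16 with sg1-IRF2, 1.97 and 1.70 with sg2-IRF2, 3.41 and 3.28 with sgAAVS1, and 3.11 and 3.35 in untransduced cells. These rest on 12 and 12, 23 and 18, 48 and 57, and 49 and 56 reads in the same order. All 4 IRF2-guide libraries lay below all 4 control libraries, with sg1-IRF2 lowest. The difference from sgAAVS1 was -2.12 ± 0.24 with sg1-IRF2 and -1.51 ± 0.24 with sg2-IRF2 (SE), and the mean of the guides differed by -1.82 ± 0.21. From untransduced cells both guides differed by -1.70 ± 0.21. From pooled reads the ratio to sgAAVS1 was 0.231 with sg1-IRF2 (95% counting interval 0.142 to 0.363) and 0.355 with sg2-IRF2 (0.241 to 0.514). Such intervals cover counting error only.

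The TRIM34 row does not stand alone, because the table also lists a readthrough gene, TRIM6-TRIM34 (chr11:5596725-5644398), that joins exons of both neighbours. In GENCODE 29, 2233 of its exonic bases (65.9%) are shared with TRIM34 and 1158 (34.1%) with TRIM6, and 83.0% of the exonic bases of TRIM34 are shared with it. Those shared bases are all 3391 exonic bases of the readthrough gene, so it has none of its own. The readthrough row had log2 values of 3.77 and 3.81 with sg1-IRF2, 3.78 and 3.75 with sg2-IRF2, 4.43 and 4.28 with sgAAVS1, and 4.43 and 4.46 in untransduced cells. It was lower than sgAAVS1 by -0.57 ± 0.11 over both guides, a smaller difference than in TRIM34. When the reads of the TRIM34 row were taken from those of the readthrough row, 55 and 63 reads were left with sg1-IRF2, 58 and 57 with sg2-IRF2, 49 and 57 with sgAAVS1, and 73 and 65 in untransduced cells. Scaled by library, the remainder was 11.5 ± 0.39 (SD, n = 2) with sg1-IRF2, 10.1 ± 0.27 with sg2-IRF2, 10.3 ± 0.83 with sgAAVS1 and 12.4 ± 0.77 in untransduced cells. The remainder in the IRF2-guide libraries lay within the range of the control libraries. Reads of the TRIM34 row came to 17.0% ± 1.4 of those of the readthrough row with sg1-IRF2, 26.2% ± 3.1 with sg2-IRF2, 49.7% ± 0.36 with sgAAVS1 and 43.2% ± 4.3 in untransduced cells. How the authors assigned reads in shared exons is not given in the sources used here, so the rows are not independent measurements. The remainder assumes that every read of the TRIM34 row is also counted in the readthrough row, which was not tested.

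**Figure D1:**
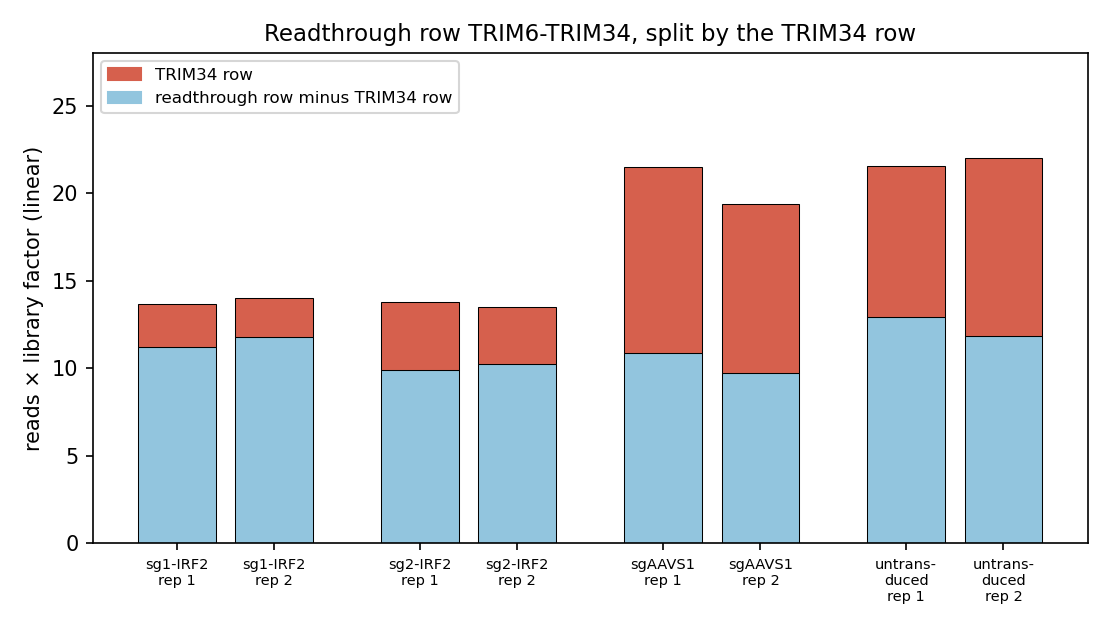
Scaled reads (reads times the library factor, linear axis from 0) of the TRIM6-TRIM34 readthrough row in each library, split into the TRIM34 row (red) and the remainder (blue). The split assumes that every TRIM34 read is also counted in the readthrough row, which was not tested. The remainder lay between 9.69 and 12.9 in all 8 libraries, while the TRIM34 row lay between 2.24 and 3.91 in the IRF2-guide libraries and between 8.66 and 10.6 in the control libraries.

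TRIM6, which builds unanchored ubiquitin chains that activate the kinase IKKε, starts upstream of TRIM34 on the same strand (chr11:5596109-5612958). Its log2 values were 4.70 and 4.82 with sg1-IRF2, 4.65 and 4.64 with sg2-IRF2, 4.62 and 4.58 with sgAAVS1, and 4.85 and 4.70 in untransduced cells. The sgAAVS1 libraries were the lowest and the sg2-IRF2 libraries next, and those of sg1-IRF2 and untransduced cells overlapped. The mean of the guides differed from sgAAVS1 by 0.10 ± 0.09 and from untransduced cells by -0.07 ± 0.09. TRIM6 shares 29.3% of its exonic bases with the readthrough gene. With the reads of TRIM6, TRIM34 and the readthrough row summed, the difference from sgAAVS1 was -0.36.

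TRIM22, which restricts transcription of HIV and targets the influenza nucleoprotein, is the member with the fewest reads (chr11:5689689-5737089, plus strand). Its log2 values were 0.70 and 0.58 with sg1-IRF2, 1.53 and 1.43 with sg2-IRF2, 1.73 and 2.20 with sgAAVS1, and 2.14 and 2.24 in untransduced cells. The reads were 8 and 8, 17 and 15, 15 and 27, and 25 and 26 in the same order. All 4 IRF2-guide libraries lay below all 4 controls on the log2 scale, but the sg2-IRF2 libraries lay close to the first sgAAVS1 library. The difference from sgAAVS1 was -1.33 ± 0.33 with sg1-IRF2 and -0.48 ± 0.33 with sg2-IRF2. Over both guides it was -0.90 ± 0.28 from sgAAVS1 and -1.13 ± 0.28 from untransduced cells. Without the first sgAAVS1 replicate the difference was -1.14, and without the second it was -0.67. The read ratio to sgAAVS1 was 0.385 with sg1-IRF2 (95% counting interval 0.202 to 0.700) and 0.692 with sg2-IRF2 (0.423 to 1.12), and the second interval includes equal levels. Of the exonic bases of TRIM22, 10.7% are shared with OR56B1, which had 0 reads in every library.

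TRIM5, which binds incoming retroviral capsids, lies on the minus strand and spans the TRIM22 locus (chr11:5663557-5938619), though the exons of TRIM5 and TRIM22 share no bases in GENCODE 29. Its log2 values were 6.18 and 6.29 with sg1-IRF2, 6.13 and 6.14 with sg2-IRF2, 6.25 and 6.31 with sgAAVS1, and 6.29 and 6.22 in untransduced cells. The groups overlapped, except that both sg2-IRF2 libraries were the lowest. The difference over both guides was -0.10 ± 0.06 from sgAAVS1 and -0.07 ± 0.06 from untransduced cells. TRIM5 had 343 to 466 reads per library. The read ratio to sgAAVS1 was 0.968 with sg1-IRF2 (95% counting interval 0.876 to 1.07) and 0.901 with sg2-IRF2 (0.816 to 0.994). The first interval includes equal levels and the second does not. TRIM5 carries the same core letters before its start as TRIM34.

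**Figure D2:**
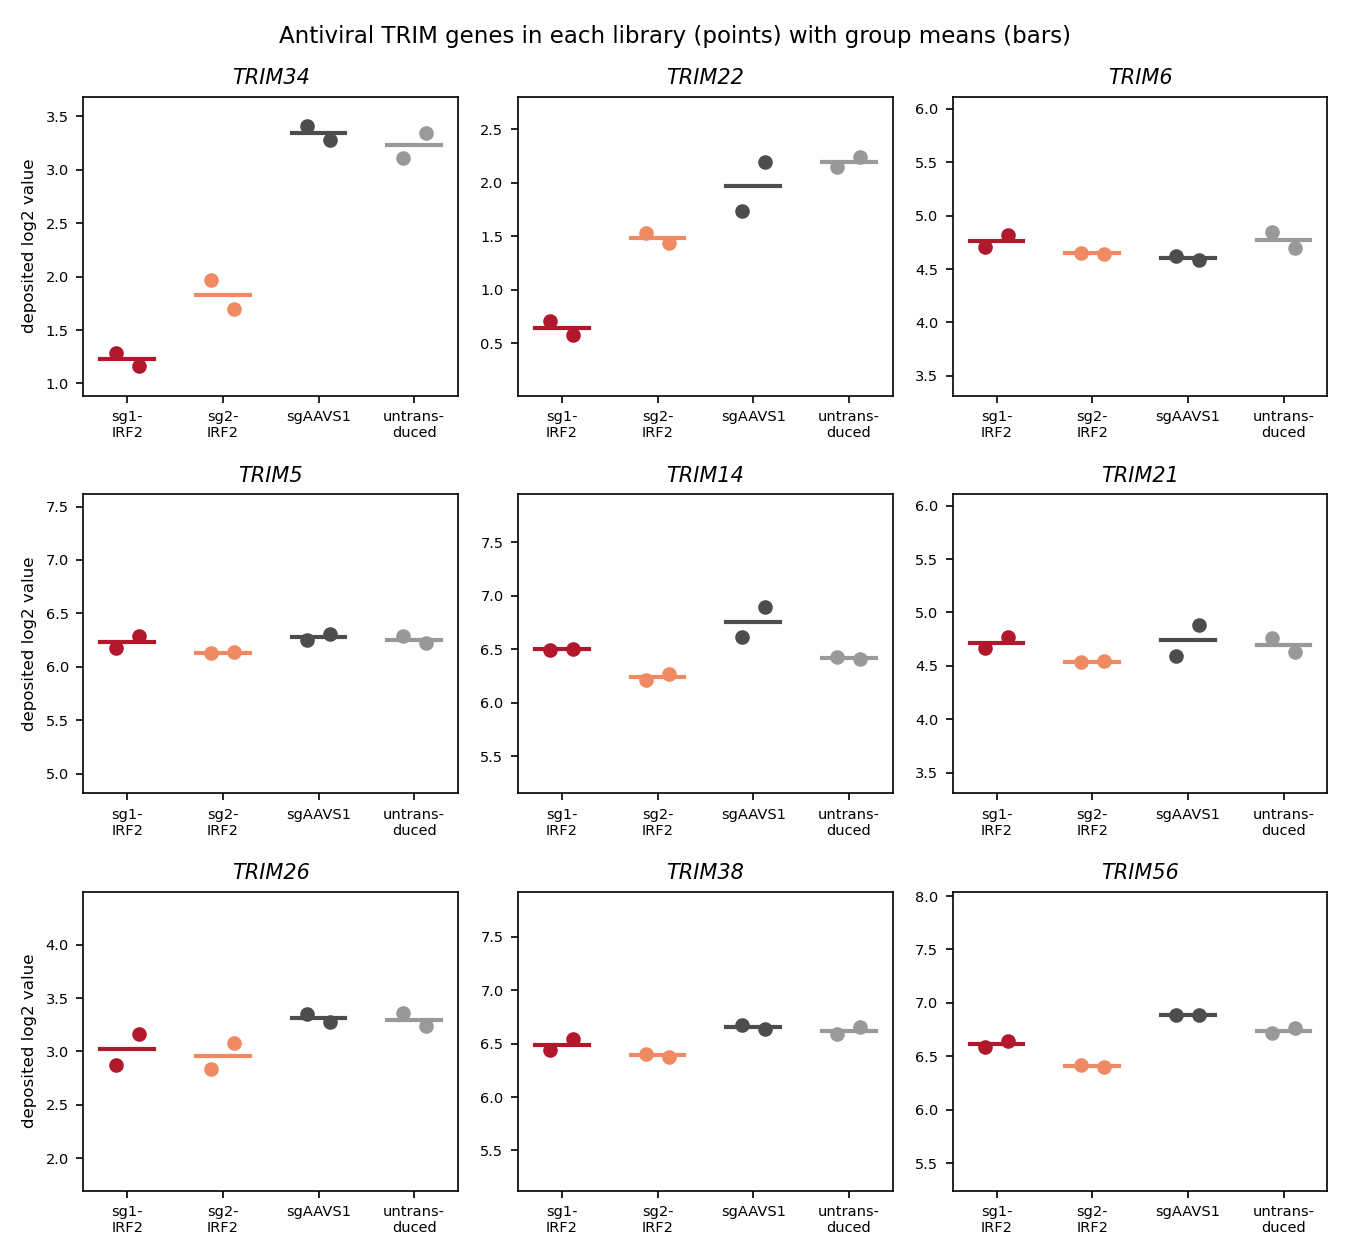
Deposited log2 values of the 9 genes in each of the 8 libraries (points) with the mean of each group (bars), on panels whose axes all span the same number of log2 units. TRIM34 and TRIM22 are lowest with sg1-IRF2 and next with sg2-IRF2, and TRIM14 is highest with sgAAVS1.

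The members outside the cluster showed smaller differences than TRIM34 and TRIM22, and for some of them the difference depended on which control was used. TRIM56, a ligase that acts on the STING pathway (chr7:101085439-101091736), had log2 values of 6.59 and 6.64 with sg1-IRF2, 6.42 and 6.40 with sg2-IRF2, 6.88 and 6.88 with sgAAVS1, and 6.72 and 6.76 in untransduced cells. All IRF2-guide libraries were below all controls. The difference over both guides was -0.37 ± 0.05 from sgAAVS1, a 1.29-fold difference, and -0.23 ± 0.05 from untransduced cells. Against sgAAVS1 it was -0.27 ± 0.06 with sg1-IRF2 and -0.47 ± 0.06 with sg2-IRF2. TRIM34 and TRIM22 had the lower value with sg1-IRF2.

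TRIM14, an adaptor in the MAVS and cGAS pathways that lacks a RING domain, is on the minus strand (chr9:98069275-98119212). Its log2 values were 6.49 and 6.50 with sg1-IRF2, 6.22 and 6.27 with sg2-IRF2, 6.62 and 6.89 with sgAAVS1, and 6.43 and 6.41 in untransduced cells. The sgAAVS1 libraries were the highest, and the untransduced libraries lay between those of the guides. From untransduced cells the difference was 0.08 ± 0.07 with sg1-IRF2 and -0.18 ± 0.07 with sg2-IRF2. Over both guides it was -0.38 ± 0.06 from sgAAVS1 but -0.05 ± 0.06 from untransduced cells. Without the second sgAAVS1 replicate the difference from sgAAVS1 was -0.25, and without the first it was -0.52. NANS, a sialic acid synthase gene on the opposite strand, shares 7.72% of the exonic bases of TRIM14, and averaged log2 6.42 ± 0.039 with sg1-IRF2, 6.33 ± 0.00041 with sg2-IRF2, 6.41 ± 0.14 with sgAAVS1 and 6.42 ± 0.068 in untransduced cells (SD, n = 2 each).

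TRIM38, a regulator of TAB2 and of nucleic acid sensors (chr6:25962802-25987156), had log2 values of 6.44 and 6.54 with sg1-IRF2, 6.40 and 6.37 with sg2-IRF2, 6.68 and 6.64 with sgAAVS1, and 6.59 and 6.65 in untransduced cells. All IRF2-guide libraries lay below all controls, the nearest being the second sg1-IRF2 and the first untransduced library. The difference was -0.22 ± 0.05 from sgAAVS1 and -0.18 ± 0.05 from untransduced cells. TRIM26, reported to act on nuclear IRF3 (chr6:30184455-30213427), had log2 values of 2.87 and 3.16 with sg1-IRF2, 2.84 and 3.08 with sg2-IRF2, 3.35 and 3.28 with sgAAVS1, and 3.36 and 3.24 in untransduced cells. Here too the guides lay below all controls, on 36 to 58 reads per library. The difference was -0.33 ± 0.16 from sgAAVS1 and -0.31 ± 0.16 from untransduced cells, and the 95% counting intervals of the read ratios to sgAAVS1 ran up to 1.11 with sg1-IRF2 and 1.05 with sg2-IRF2.

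TRIM21, the cytosolic antibody receptor (chr11:4384897-4393696), lies apart from the cluster on the same chromosome. Its log2 values were 4.67 and 4.77 with sg1-IRF2, 4.53 and 4.55 with sg2-IRF2, 4.59 and 4.89 with sgAAVS1, and 4.76 and 4.63 in untransduced cells. Both sg2-IRF2 libraries were the lowest, and the other groups overlapped. The difference was -0.11 ± 0.10 from sgAAVS1, between -0.26 and 0.03 when either sgAAVS1 replicate was left out, and -0.06 ± 0.10 from untransduced cells. TRIM21 is 1 of the 2 members with 3 repeats of the core in the window searched.

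**Figure D3:**
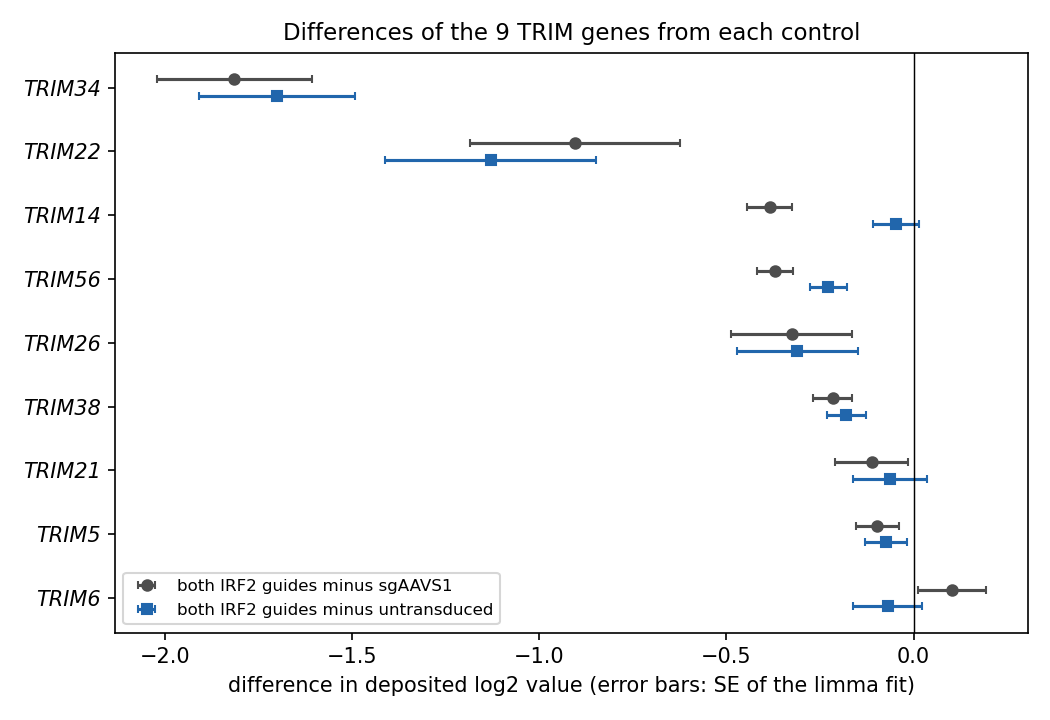
Log2 differences of both IRF2 guides from sgAAVS1 (dark circles) and from untransduced cells (blue squares) for the 9 genes, with error bars of 1 SE. TRIM34 and TRIM22 lie farthest below 0 against both controls, and TRIM14 is at -0.38 against sgAAVS1 and at -0.05 against untransduced cells.

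Over both guides against sgAAVS1, 4 of the 9 members (TRIM34, TRIM56, TRIM14 and TRIM38) were among the genes with limma adjusted p under 0.05 and lower values, and 0 were among the higher ones. Of all genes tested, 1.10% were called lower and 0.491% higher in that comparison (161 and 72 genes, or 143 and 99 with quantile normalization). The median difference of the 9 members was -0.33, against -0.02 over all genes tested. Against untransduced cells 3 members were called lower (TRIM34, TRIM22 and TRIM56) and 0 higher, with 1.51% of all genes called lower and 0.982% higher, and the medians were -0.18 for the members and 0.01 for all genes. The members were chosen with these differences known, so nothing is read from these shares. Both comparisons use the same IRF2-guide libraries. By guide, 3 members were called lower with sg1-IRF2 against sgAAVS1 (TRIM22, TRIM34 and TRIM56; 0.498% of all genes lower, 0.327% higher) and 4 with sg2-IRF2 against sgAAVS1 (TRIM34, TRIM14, TRIM38 and TRIM56; 7.11% lower, 1.05% higher). Against untransduced cells 2 were called lower with sg1-IRF2 (TRIM22 and TRIM34; 2.06% lower, 7.12% higher) and 2 with sg2-IRF2 (TRIM34 and TRIM56; 1.23% lower, 0.0886% higher). Against all 4 control libraries 5 were called lower over both guides (TRIM22, TRIM34, TRIM14, TRIM38 and TRIM56; 1.15% lower, 0.293% higher). No member was called higher in these comparisons. The shares of each guide depend on the scaling. With library medians aligned, 82 genes were lower and 34 higher with sg1-IRF2 against sgAAVS1, in place of 73 and 48, and 237 were lower and 263 higher with sg2-IRF2 against sgAAVS1, in place of 1042 and 154. Against untransduced cells the aligned counts were 431 lower and 352 higher with sg1-IRF2, in place of 302 and 1044, and 96 lower and 21 higher with sg2-IRF2, in place of 181 and 13. In 5 members (TRIM34, TRIM22, TRIM56, TRIM38 and TRIM26) the 4 IRF2-guide libraries lay below all 4 control libraries, which 1.79% of all genes tested did. Against the sgAAVS1 libraries alone this held for 6 members, TRIM14 added, and for 5.92% of all genes.
Over both guides, TRIM34 and TRIM56 were called under all 19 alternatives of the fit, control group included. Because the members were chosen with these differences known, how often a call recurs is a description and no support for it. With sg1-IRF2 alone against untransduced cells TRIM56 was not called (-0.12 ± 0.06, SE). With TRIM34 reads summed with those of TRIM6 and the readthrough row, the difference from sgAAVS1 was -0.36, against -1.82 for the TRIM34 row alone, with no call made. TRIM6 had 111 to 163 reads per library and TRIM34 12 to 57, so most of the summed reads were not TRIM34 reads. Reads in shared exons are counted more than once in that sum if they were assigned to both rows. TRIM14 was called under 17 of 19, the exceptions being untransduced cells as control and a fit without the mean-variance trend. TRIM38 was called under 13 of 19 and missed the threshold without the first sgAAVS1, first sg1-IRF2, first sg2-IRF2 or second sg2-IRF2 library, against untransduced cells and without the trend, at differences of -0.24 to -0.18 over all 19. TRIM22 was called under 2 of 18, those with untransduced cells or all 4 control libraries as the control.

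The guides were compared with each other, a contrast that sets neither against a control. By chi-square per gene, sg1-IRF2 libraries were near same-numbered sgAAVS1 libraries, and sg2-IRF2 libraries near untransduced ones. Between sg1-IRF2 and sg2-IRF2 libraries it was 1.27 to 1.54. The part of the likeness to control libraries in this contrast was not tested. The difference in IRF2 itself between sg1-IRF2 and sg2-IRF2 was -1.77 ± 0.21 (adjusted p = 9.7e-06). TRIM34 differed between sg1-IRF2 and sg2-IRF2 by -0.61 ± 0.24 (limma moderated test, adjusted p = 0.088) and TRIM22 by -0.84 ± 0.33 (adjusted p = 0.08), with both sg1-IRF2 libraries below both sg2-IRF2 libraries for each gene. Neither passed the threshold. TRIM14 was higher with sg1-IRF2 by 0.26 ± 0.07 (adjusted p = 0.019) and TRIM56 by 0.21 ± 0.06 (adjusted p = 0.02). The other 5 members differed by 0.06 to 0.18 (adjusted p = 0.25 to 0.85).
In that contrast 12.7% of all genes were called higher and 0.634% lower, and the median over all genes was 0.11. With library medians aligned, 86 genes were higher and 145 lower in place of 1859 and 93, and with quantile normalization 110 were higher and 177 lower. After alignment TRIM14 differed by 0.14 (adjusted p = 0.38), TRIM56 by 0.09 (adjusted p = 0.44), TRIM34 by -0.72 (adjusted p = 0.14) and TRIM22 by -0.95 (adjusted p = 0.15). The calls of TRIM14 and TRIM56 were also lost without any 1 of the 4 libraries of the contrast, with values of 0.23 to 0.28 and 0.18 to 0.23.

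The control guide was compared with untransduced cells to see how far the controls differ in these genes. TRIM14 was higher with sgAAVS1 than in untransduced cells by 0.34 ± 0.07 (limma moderated test, adjusted p = 0.0041), the only member past the threshold, where 2.97% of all genes were called higher and 1.79% lower. With library medians aligned it was 0.31 (adjusted p = 0.014). Without the first sgAAVS1 replicate it was 0.47 (adjusted p = 3e-06), without the second 0.20 (adjusted p = 0.054), and without the first or second untransduced replicate it was 0.35 and 0.33 (adjusted p = 0.07 and 0.074). TRIM56 was 0.14 ± 0.06 (adjusted p = 0.16), TRIM22 -0.23 ± 0.33 (adjusted p = 0.77) and TRIM34 0.11 ± 0.24 (adjusted p = 0.86). Across all genes 435 were higher and 262 lower with sgAAVS1, and 302 and 346 with library medians aligned.

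The remaining TRIM family genes are listed beside the members. The members were chosen with their differences known, so nothing is read from how the lists compare. Of all genes tested, 1.10% were called lower and 0.491% higher with both guides against sgAAVS1. Of 61 other family genes, 39 were tested, and 1 was called lower and 0 higher in that comparison, with a median of -0.04. That gene was TRIM25, a ligase that activates RIG-I. Its log2 value averaged 7.65 ± 0.014 with sg1-IRF2, 7.52 ± 0.032 with sg2-IRF2, 7.75 ± 0.047 with sgAAVS1 and 7.72 ± 0.0034 in untransduced cells (SD, n = 2), a difference from sgAAVS1 of -0.17 ± 0.04 (adjusted p = 0.033). The call was lost under 11 of 19 alternatives (adjusted p = 0.063 to 0.31), among them every library left out singly except the second sgAAVS1 replicate. Against untransduced cells the difference was -0.13 ± 0.04 (limma adjusted p = 0.11). In that comparison 0 of the 39 genes were called, where 1.51% of all genes were called lower and 0.982% higher.

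**Figure D4:**
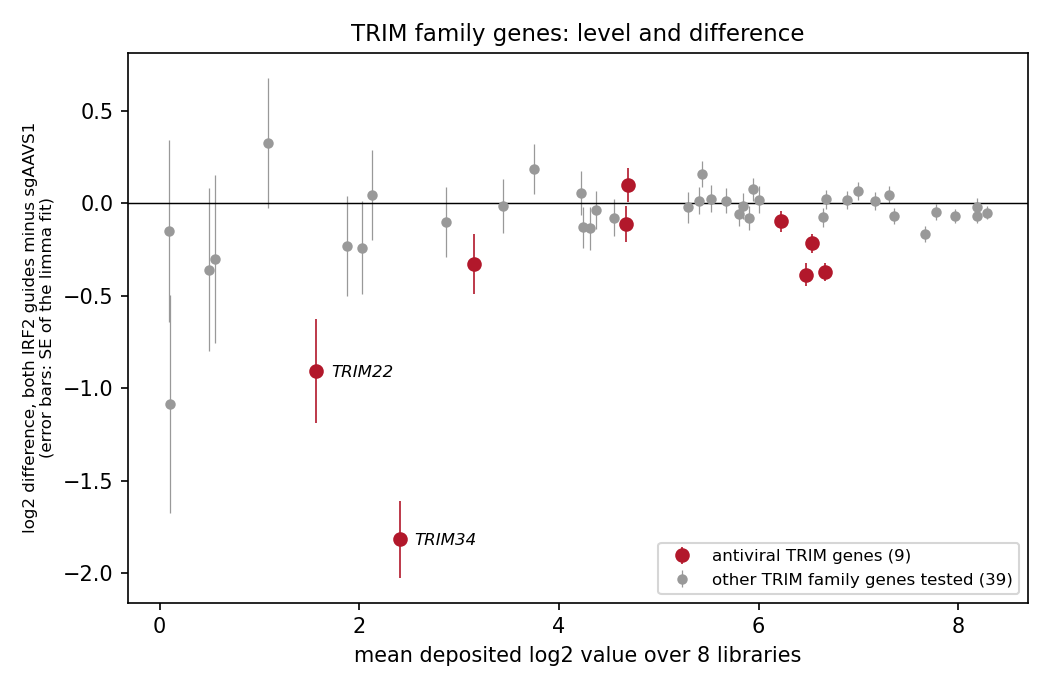
Log2 difference of both IRF2 guides from sgAAVS1 (vertical axis, error bars of 1 SE) against mean log2 value over the 8 libraries for the 9 antiviral TRIM genes (red) and the 39 other TRIM family genes tested (grey). TRIM34 is lowest at -1.82, and TRIM22 at -0.90 lies below all grey points except 1 gene of low level at -1.09. The 9 genes were chosen with these differences known.

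Antiviral TRIM proteins act with sensors, adaptors, kinases and ubiquitin-conjugating enzymes, and 40 such genes were listed. Of the 37 tested, 1 was called lower and 0 higher with both guides against sgAAVS1, with a median of -0.05. Among all genes, 1.10% were called lower and 0.491% higher. The list gene called was DHX58, which encodes LGP2, a relative of RIG-I (-2.67 ± 0.30, limma adjusted p = 8.3e-07). It had 5 to 64 reads per library, with an SD of 0.61 in sg1-IRF2 and 0.92 in sg2-IRF2. DDX58, which encodes RIG-I, the target of TRIM25, had -0.77 ± 0.23 (limma adjusted p = 0.12) on 15 to 36 reads. MAVS, the adaptor downstream of RIG-I, had -0.05 ± 0.04 against sgAAVS1 (adjusted p = 0.67). Set against untransduced cells it was higher by 0.21 ± 0.04 (limma adjusted p = 0.0014). The control guide sgAAVS1 was also above untransduced cells for MAVS, by 0.26, and was called higher there. MAVS averaged log2 8.55 with sg1-IRF2, 8.30 with sg2-IRF2, 8.48 with sgAAVS1 and 8.22 in untransduced cells. With sg2-IRF2 alone against sgAAVS1, 10 of the 37 were called lower, DHX58 and DDX58 among them, where 7.11% of all genes were called lower. In that contrast the median of all genes was -0.07, and 237 genes in place of 1042 were lower with library medians aligned. With sg1-IRF2 alone DHX58 was the 1 gene called. IKBKE, the kinase activated by TRIM6, had -0.34 ± 0.14 against sgAAVS1 (adjusted p = 0.34). Its difference from untransduced cells was 0.28 ± 0.14 (limma adjusted p = 0.37), and that of sgAAVS1 from untransduced cells was 0.62, called higher.

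Around the chromosome 11 cluster, 92 listed rows other than members lie within 1 Mb of the span from TRIM6 to TRIM22, and 26 of them were tested. Only the readthrough row TRIM6-TRIM34 was called with both guides against sgAAVS1, lower, and 0 were called higher. That row shares exonic bases with the member TRIM34. Among all genes, 1.10% were called lower and 0.491% higher. The median of the 26 was -0.01. The globin genes HBG1, HBG2, HBE1 and HBD differed by -0.06 ± 0.06, -0.09 ± 0.06, -0.08 ± 0.06 and 0.26 ± 0.19 (adjusted p = 0.83, 0.65, 0.71 and 0.71). The listed span of HBG2 covers TRIM6 and TRIM34, with no exonic bases shared. TRIM68, on the globin side, had 0.16 ± 0.07 (limma adjusted p = 0.39), and TRIM3, on the other side, had -0.13 ± 0.11 (adjusted p = 0.76). Against untransduced cells the readthrough row was called lower and DNHD1 higher, the latter by 0.27 ± 0.06 (limma adjusted p = 0.0088). In that comparison 1.51% of all genes were called lower and 0.982% higher. DNHD1 was also 0.19 higher with sgAAVS1 than in untransduced cells, which was not called.

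Genes with a pattern like that of the members were sought by the Pearson correlation of log2 values over the 8 libraries, among genes averaging log2 2 or more. The libraries share group and depth, and these values are descriptions. The 5 genes most like TRIM34, of 12499 compared, were UBE2L6 (0.996), C19orf66 (0.994), DTX3L (0.988), PSME1 (0.984) and IRF2 (0.984). The 5 most like TRIM22, of 12500 compared, were ADCY6 (0.966), CRYAB (0.939), COL1A1 (0.936), IRF2 (0.933) and CLU (0.931). TRIM34 and TRIM22 correlated with each other at 0.917. TRIM34 correlated with TRIM38 at 0.801, with TRIM5 at 0.456 and with TRIM6 at -0.261.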

How the data were processed

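Per the labels, total RNA was treated with DNase, depleted of ribosomal RNA and made into directional libraries. Tools named in the submitters' processing notes are cutadapt and Bowtie2, with hg38 as the build. How reads were counted, on which strand and against which annotation is not given in the sources used here. Per library, the authors deposited log2 values, each a gene's read number times a factor of that library. On the linear scale 100% of values above the lowest were whole reads (tolerance 0.01 read), and a gene with 0 reads stands at 0.9 read.

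Rows averaging log2 0 or more were tested (14665 of 35805). Group means of all 8 libraries were fitted in limma 3.58.1 (R 4.3.3) with a mean-variance trend (4 residual and 22.4 prior degrees of freedom). The test was two-sided, with Benjamini-Hochberg adjustment over all genes tested and a threshold of 0.05. The fit was checked on simulated counts. Exons came from GENCODE release 29, and exonic lengths were cut to the deposited span. Python 3.11.15, pandas 2.3.3, scipy 1.17.1 and matplotlib 3.10.9 were used.

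The members and lists were chosen with earlier results of these data known. Named are all members, the list genes called, and the 5 genes most correlated with each of the 2 members whose group means range most. Other genes were named after their values were seen (DDX58, MAVS, IKBKE, HBG1, HBG2, HBE1, HBD, TRIM68, TRIM3, DNHD1). Some marker genes are not reported here. Where nothing says that replicates were separate cultures, p-values measure only the spread between libraries. Chi-square per gene between replicates was 0.788 for sg1-IRF2, 0.671 for sg2-IRF2, 1.64 for sgAAVS1 and 0.828 for untransduced cells, where counting noise gives about 1, against 1.12 to 2.31 between groups. Both libraries of each group were kept. The spread between them in 3 groups is no more than counting noise, so the standard errors and p-values need not cover variation between separate cultures.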

Additional observations from a re-analysis of the deposited data

Results flagged for a closer look

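The difference between sg1-IRF2 and sg2-IRF2, each taken against sgAAVS1, passed the test for TRIM14, at 0.26, and for TRIM56, at 0.21 (limma moderated test, adjusted p = 0.019 and 0.02). The level of sgAAVS1 cancels in that difference, which equals the direct contrast of the guides. The differences of TRIM14 and TRIM56 from sgAAVS1 were -0.26 and -0.27 with sg1-IRF2, against -0.51 and -0.47 with sg2-IRF2, and both sg1-IRF2 libraries lay above both sg2-IRF2 libraries. The median over all genes in the same contrast was 0.11, and with library medians aligned neither gene passed (adjusted p = 0.38 and 0.44). In a separate contrast, sgAAVS1 was above untransduced cells by 0.34 ± 0.07 for TRIM14 and 0.14 ± 0.06 for TRIM56 (limma adjusted p = 0.0041 and 0.16). Only TRIM14 passed there. The part of the likeness between groups in the differences between the guides was not tested. Groups of 2 libraries were not searched for outlying samples.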

How the results depend on the processing

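The differences of the 9 members from sgAAVS1 kept their sign under every alternative tried, except TRIM6, which was -0.07 against untransduced cells and -0.36 with the rows of the readthrough locus summed, and TRIM21, which was 0.03 without the second sgAAVS1 replicate. The median of the members was -0.18 against untransduced cells and ran from -0.38 to -0.25 when 1 library was left out. TRIM22 has no value at the stricter filter of log2 2, and neither does the signalling partner DHX58, which averaged log2 1.96. Without the mean-variance trend 2 members were called, and leaving out 1 library gave 3 to 4. Genes called against sgAAVS1 numbered 233. There were 636 without a filter, 60 without the trend, 366 against untransduced cells and 242 with quantile normalization (99 higher, 143 lower, against 72 and 161). Leaving out 1 library gave 141 to 428, with 418 and 428 without either sgAAVS1 library, 141 without the first sg1-IRF2 library and 151 and 141 without either sg2-IRF2 library. Between the guides 1952 genes were called. There were 230 with limma voom on recovered reads, 231 with medians aligned, 287 with quantile normalization, 2 without the trend and 4033 with only the groups compared, and 115 to 3628 when 1 library was left out, the fewest without the second sg1-IRF2 library. Between sgAAVS1 and untransduced cells 697 were called, with 1184 without a filter, 11 without the trend and 183 to 1456 when 1 library was left out, the most without the second sgAAVS1 library. The count of other TRIM genes was 1, and 0 with medians aligned, without the trend, against untransduced cells and with only the groups compared, 3 without a filter, and 0 to 1 when 1 library was left out. For signalling partners it was 1, and 0 at the stricter filter and without the trend, 2 without a filter, against untransduced cells and against all 4 controls, and 1 to 2 when 1 library was left out. For the neighbours it was 1, and 2 against untransduced cells and 0 to 2 when 1 library was left out. The causes were not tested. The comparison with all 4 controls was added after seeing the data. With the replicate number as a block 201 genes were called against sgAAVS1, 1798 between the guides and 641 between the controls, and the members called stayed at 4. Deviations of same-numbered libraries correlated at -0.039 to 0.063, the highest between sgAAVS1 and sg1-IRF2. Chi-square per gene between those groups was 1.12 and 1.23 for the same number and 1.54 and 1.69 for different numbers. The numbers were not taken as pairs in the main fit, and pairing within those groups alone was not tested. Depth limits TRIM22, with 8 to 27 reads, and TRIM34, with 12 to 57, and among the list genes DHX58, with 5 to 64.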
